A study of Mus musculus with 32 samples.

Results

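Blood RNA of wild-type (WT) mice from 2 experiments was compared. The series holds 32 arrays, of which 8 are the members here: the blood arrays of 5 WT mice from an experiment on Fmr1-knockout (Fmr1-KO) mice and of 3 WT mice from an experiment on mice that lack 1 copy of Tsc2 (Tsc2+/-). The arrays were taken by their labels. Per the study's methods, the mice of the Fmr1 experiment were C57BL/6 congenic and those of the Tsc2 experiment had a mixed 129/SvJae-C57BL/6J background. The mice were killed at 8 to 10 weeks of age. Below, the groups are called Fmr1-WT and Tsc2-WT after their experiments. None of the 8 mice carries the knockout, none was treated, and each also gave 1 cerebellum array. In a mixed background each mouse holds its own blend of the alleles of both strains, so the Tsc2-WT mice are not copies of 1 genotype. Strain and experiment are 1 and the same split of these mice and cannot be told apart. How and when the blood was taken is not given in the sources used here. Any difference in its handling between the experiments could not be told apart from strain either.

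Whole blood carries RNA of several cell types. Young red cells bring transcripts for globin, heme synthesis and the red cell membrane, platelets bring a small set made in megakaryocytes, and T cells, B cells, natural killer (NK) cells, neutrophils and monocytes bring the rest. Inbred strains are known to differ in the numbers of these cells and in single genes, such as the deletion in Nnt that C57BL/6J carries. In a bulk sample, fewer cells of a type and less RNA per cell cannot be told apart.

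Each value is a probe set intensity on an Affymetrix Mouse Gene 1.0 ST array, scaled by the authors over all arrays. Differences are log2(Tsc2-WT) minus log2(Fmr1-WT), so a positive value means higher in Tsc2-WT mice. A probe set is called listed at an unadjusted limma p under 0.01, the study's own limit, and passed at a Benjamini-Hochberg adjusted p under 0.05 over all 35556 probe sets. The median intensity was 142.7 to 155.5 on the Fmr1-WT arrays and 152.1, 159.5 and 185.6 on the Tsc2-WT arrays. Fmr1 was present at 549 ± 130 (SD, n = 5) against 636 ± 170 (SD, n = 3), and Tsc2 at 662 ± 35.3 against 827 ± 158, with neither listed. The labels call all mice female and the methods call them male. Xist, the RNA of the inactive X chromosome, lay between 35.3 and 62.6 on all 8 arrays and the Y-linked Uty between 766 and 1452. Of 11 brain genes 1 was listed lower, beside 2.55% of all probe sets: Mbp, which blood cells also express. The cerebellar markers Pcp2 and Gabra6 stayed at or below 129.3 and 25.6.

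The array of Tsc2-WT mouse 3 stood apart from the other blood arrays of its group. Its platelet genes were low: Ppbp, a platelet chemokine, read 912 there and 12502 to 17800 on the other 7 arrays. Genes of immature T cells in the thymus were high on it, with the recombination enzyme gene Rag1 at 6851 and Dntt at 9131. Rag1 and Dntt read 793 and 1259 in Tsc2-WT mouse 2, and at most 116 in Tsc2-WT mouse 1 and the Fmr1-WT mice. Over 10 thymocyte genes, picked after the values were seen, the summed intensity was 3820 to 4847 in Fmr1-WT mice and 7597, 13363 and 54667 in Tsc2-WT mice, and no gene of the list was at 0. Counts without this array are given below.

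A further set of genes marked the Fmr1-WT arrays unevenly. Scgb1a1, the secretoglobin of airway club cells, read 8360, 10298, 10818, 2044 and 186 in the Fmr1-WT mice and 14.1, 11.2 and 1360 in the Tsc2-WT mice. Bpifa1, a secreted protein of the upper airway, read 11294, 11971, 11316, 788 and 107 against 21.4, 21.5 and 512. Both genes were high in 3 of the 5 Fmr1-WT mice and their groups overlapped. Over 20 genes of airway lining and alveolar macrophages, also picked after the values were seen, the summed intensity was 7027 to 59641 in Fmr1-WT mice and 2624 to 6558 in Tsc2-WT mice. Of the 20 genes, 7 were lower in every Tsc2-WT mouse than in any Fmr1-WT mouse, beside 5.77% of all probe sets, and nothing is read from this count because the list was picked on these values. The lung surfactant gene Sftpc lay at 41.5 to 77.5 against 64.1 to 73.1, and the alveolar macrophage receptors Siglecf and Marco at 631 to 723 against 520 to 642 and at 70.7 to 165 against 105 to 126.

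**Figure D1:**
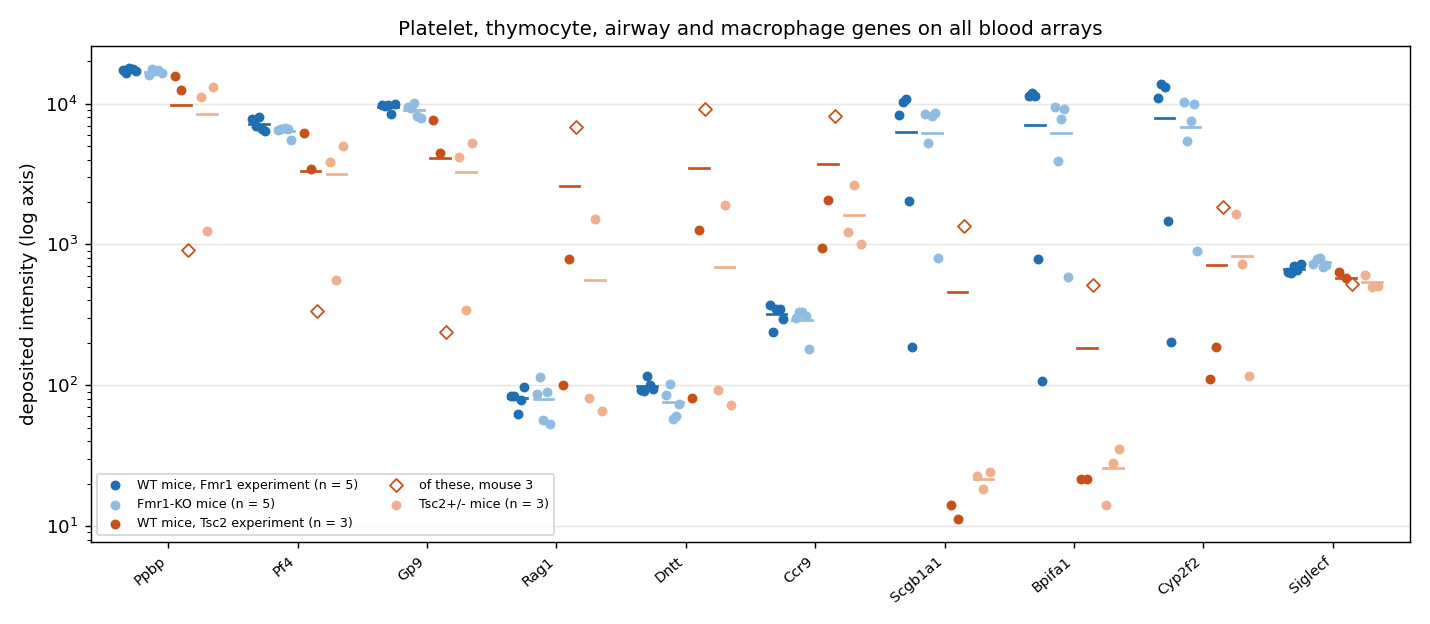
Deposited intensity (log axis) of platelet genes (Ppbp, Pf4, Gp9), thymocyte genes (Rag1, Dntt, Ccr9), airway genes (Scgb1a1, Bpifa1, Cyp2f2) and the macrophage receptor gene Siglecf on all 16 blood arrays. Points are mice, lines are group means and the open diamond is Tsc2-WT mouse 3, which has the lowest platelet values (Ppbp at 912) and the highest Rag1 and Dntt values.

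The comparison asks how blood expression differs between the WT mice of the experiments. It listed 4259 of 35556 probe sets, of which 3353 were higher in Tsc2-WT mice (9.43%) and 906 lower (2.55%). This split depends on the scaling, and the median over all probe sets was itself shifted by 0.22. After quantile normalization within blood the shift was -0.03, and 1784 were higher (5.02%) and 1858 lower (5.23%). Without Tsc2-WT mouse 3 the list held 2033 probe sets (5.72%), without mouse 2 it held 1720, and without Fmr1-WT mouse 2 or 4 it held 2336 or 2346. After adjustment 47 passed (0.132%), 40 higher (0.112%) and 7 lower (0.0197%), and no group values overlapped in any of them. The number that passed ran from 7 without Tsc2-WT mouse 2 to 2324 without Tsc2-WT mouse 1, with 39 without mouse 3, and it was 11, 11, 10 and 22 without Fmr1-WT mouse 2, 3, 4 and 5. With 16 added before log2, which damps values near 0, 2683 passed (2141 higher and 542 lower). The listed probe sets that did not pass had adjusted p values of 0.0501 to 0.0834, so genes called listed below, where they are not said to pass, are given with the standard error (SE) of their log2 difference or with their adjusted p. For a single gene, the exact permutation test over the 56 ways to draw 3 of 8 mice cannot go below p = 0.018, the value that each gene with its own numbers below and no overlap between the groups reached.

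Among the named genes that passed, the largest downward differences were in Atp6v0d2, Car4, Mt2 and Plet1. The airway genes Scgb1a1 and Bpifa1, whose groups overlapped, differed by -5.76 (SE 2.00) and -5.42 (SE 1.93) and were not listed. Atp6v0d2, a subunit of the proton pump of osteoclasts and some macrophages, read 4464, 2119, 6424, 2805 and 1395 in Fmr1-WT mice and 57.8, 46.9 and 53.1 in Tsc2-WT mice. Every Tsc2-WT value sat near the cerebellum level of the same gene, 40.9 to 55.7 in these mice. The log2 difference was -5.83 (SE 0.48, limma adjusted p = 0.016). Plet1, a surface protein of placental progenitors and of some epithelia and myeloid cells, was at 1602 ± 521 (SD, n = 5) against 127 ± 25.3 (SD, n = 3), a log2 difference of -3.62 (SE 0.29, limma adjusted p = 0.016). Car4, a membrane-bound carbonic anhydrase, read 643, 254, 870, 546 and 359 against 9.69, 8.42 and 25.2 (log2 difference -5.26, SE 0.51, limma adjusted p = 0.0266). The groups of all 3 genes were far apart. The Tsc2-WT values of Atp6v0d2 were near, and those of Car4 under, the median of the olfactory receptor genes on the same arrays (52.7 to 58.9), so they give only an upper limit of the Tsc2-WT level and the size of these differences is not fixed. With 16 added before log2 the differences were -5.46 and -4.10.

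Tpm2, a tropomyosin, read 275, 264.5, 532.5, 253.4 and 174.1 against 62.1, 6.93 and 56.1, in the range of the olfactory receptor genes, and was listed (-3.27, SE 0.75, and -2.55 with 16 added). Tm4sf19, a tetraspanin-like membrane protein, read 2139 to 3925 against 1421, 488.7 and 152.9 (-2.63, SE 0.64) and was not listed without Tsc2-WT mouse 2, at -2.65.

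Chil3, a chitinase-like protein secreted by macrophages, read 1115, 686, 1284, 710 and 400 against 55.8, 120 and 63.4 and was listed (log2 difference -3.37, limma adjusted p = 0.0507). Lpl, lipoprotein lipase, differed by -2.49 (SE 0.58), and Ctsk, cathepsin K, by -1.51 (SE 0.37). Both were listed, and Ctsk was not listed without Fmr1-WT mouse 1 or Tsc2-WT mouse 2 or 3, at differences of -1.41, -1.52 and -1.34. The airway genes above moved with this set in part: Atp6v0d2, Chil3 and Plet1 were high in all 5 Fmr1-WT mice, while Scgb1a1 and Bpifa1 were at 2044 and 788 in mouse 4 and at 186 and 107 in mouse 5. Fabp4, a fatty acid binding protein and a member of the airway and alveolar macrophage list, did not separate the groups (316 ± 188 against 164 ± 59.5, limma adjusted p = 0.267). Whether these genes come from 1 kind of cell was not tested.

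The metallothioneins bind zinc and copper and are induced by metals and by glucocorticoids. Mt2 read 3534, 3873, 6023, 3329 and 3310 in Fmr1-WT mice and 144, 200 and 488 in Tsc2-WT mice. Mt1 read 1776, 1900, 2796, 1773 and 1468 against 241, 417 and 386. In both genes the highest Tsc2-WT value was well under the lowest Fmr1-WT value. The log2 differences were -4.02 (SE 0.41, limma adjusted p = 0.0334) and -2.49 (SE 0.26, adjusted p = 0.0369). Mt3, the brain form of the family and a neighbour on chromosome 8, was at 429 ± 37.7 against 373 ± 59.1 (log2 difference -0.21, limma adjusted p = 0.388). In cerebellum of the same mice Mt2 was at 13192 ± 1125 against 13213 ± 870, and Mt1 differed by -0.16 (limma adjusted p = 0.882). The difference of Mt2 between blood and cerebellum was listed but did not pass (limma adjusted p = 0.086), and the same held for Mt1 (adjusted p = 0.19).

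The promoters of Mt1 and Mt2 are shown because their metal response elements, bound by the zinc-sensing factor MTF1, are the known control sites of these 2 genes. The sequences are RefSeq's for GRCm38.p6, from 250 bases before the annotated start to 30 bases from it on. Capitals mark the core TGCACNC or TGCGCNC on either strand. Mt1 lies at chr8:94178839-94179118 on the plus strand and Mt2 at chr8:94172368-94172647 on the plus strand.
Mt1: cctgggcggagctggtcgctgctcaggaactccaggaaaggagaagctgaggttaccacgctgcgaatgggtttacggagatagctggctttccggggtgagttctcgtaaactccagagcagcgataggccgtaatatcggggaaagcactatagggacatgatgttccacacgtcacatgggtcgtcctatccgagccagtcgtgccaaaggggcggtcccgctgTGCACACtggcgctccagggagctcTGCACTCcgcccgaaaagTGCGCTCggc
Mt2: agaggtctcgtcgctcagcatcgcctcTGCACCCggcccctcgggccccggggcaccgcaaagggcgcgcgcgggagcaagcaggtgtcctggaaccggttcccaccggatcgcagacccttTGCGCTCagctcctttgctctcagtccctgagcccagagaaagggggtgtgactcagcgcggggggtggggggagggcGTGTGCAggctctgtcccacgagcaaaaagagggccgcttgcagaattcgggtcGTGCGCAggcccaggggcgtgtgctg
The core occurred 3 times in the window of Mt1, starting at -23, 2 and 20 from the annotated start. In that of Mt2 it occurred 4 times, at -223, -128, -50 and 4. The annotated start need not be the start used in blood, and the windows end 30 bases from it on. Elements further on are therefore neither shown nor counted. Whether the marked cores are the known elements was not tested. It occurred at least once in 24.1% of all 32851 promoter windows of the same length.

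**Figure D2:**
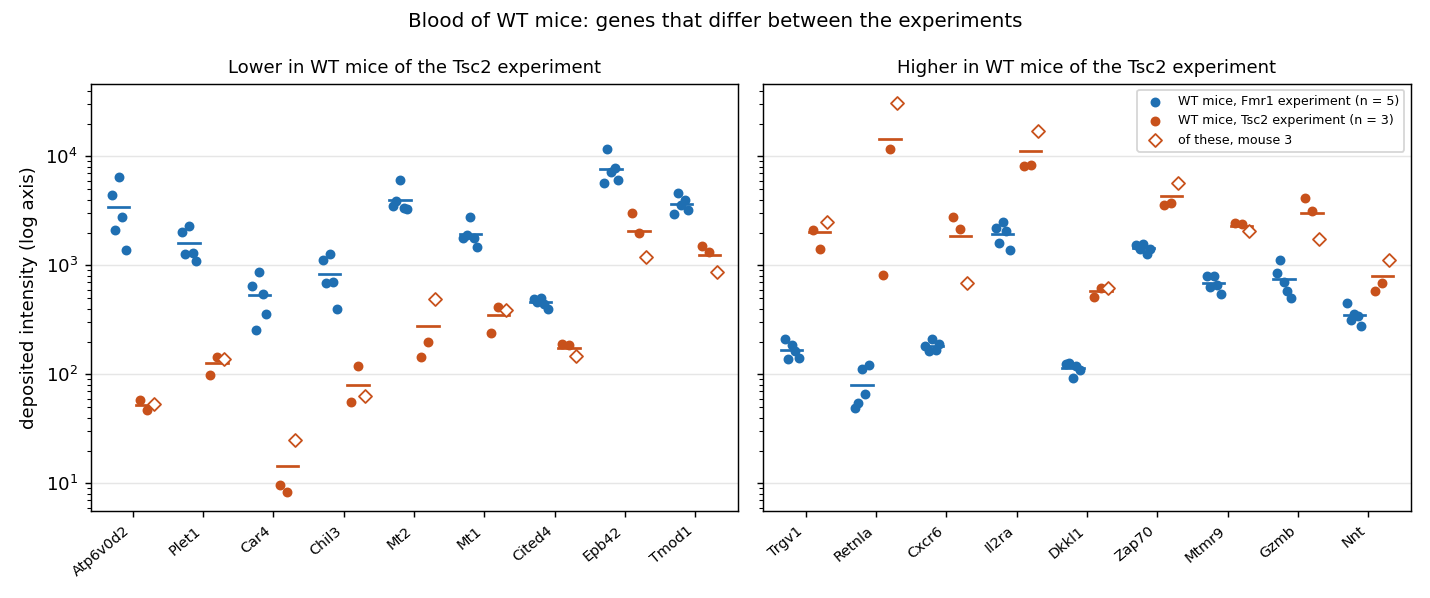
Deposited intensity (log axis) of 18 genes on the 8 WT blood arrays, with those lower in Tsc2-WT mice on the left and those higher on the right. Points are mice, lines are group means, the open diamond is Tsc2-WT mouse 3, and in each gene shown the groups do not overlap (Atp6v0d2 at 1395 to 6424 against 46.9 to 57.8).

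Cited4, a transcriptional coactivator, was the remaining named gene that passed downward, at 460 ± 41.3 against 175 ± 24.2 (log2 difference -1.40, limma adjusted p = 0.0362). A group of genes on chromosome 7 differed among the Tsc2-WT mice themselves. Gm4759, a member of the family of very large interferon-inducible GTPases, read 247, 276 and 2625 in Tsc2-WT mice 1 to 3 and 2867 to 4892 in Fmr1-WT mice. Its neighbour Gm1966 of the same family read 82.2, 170 and 1264 against 1590 to 2102. Trim30d, a tripartite motif gene on the same chromosome, read 80.9, 20.4 and 434 against 562 to 899.7. Mice 1 and 2 were low in all 3 genes and mouse 3 lay nearer to the Fmr1-WT mice, without overlap. The genes were listed with log2 differences of -2.69 (SE 0.75), -2.74 (SE 0.78) and -3.02 (SE 0.85). None was listed when any 1 mouse other than Tsc2-WT mouse 3 was left out, at differences of -3.11 to -1.91, and without mouse 3 they were -3.79, -3.88 and -4.16. Among the Tsc2+/- mice, Gm4759 read 5118, 302 and 173, again with 1 mouse at the Fmr1-WT level. Families of close copies can share probes, so which copy was measured is uncertain.

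Red cell genes were lower in Tsc2-WT mice. Of 17 genes of the erythroid membrane and its skeleton, 13 were listed lower and 0 higher, beside 2.55% of all probe sets, and the median difference was -1.24 beside 0.22 over all probe sets. The list median intensity was 1515, 2580, 2329, 2127 and 1775 in Fmr1-WT mice and 1220, 1067 and 640.3 in Tsc2-WT mice, so the groups were separate and mouse 3 was lowest. Leaving out any 1 mouse gave 11 to 16 listed members, 13 without Tsc2-WT mouse 3, with a median of -0.90. None of them passed after adjustment.

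Epb42 encodes protein 4.2, which ties the membrane skeleton to band 3. It read 5694, 11566, 7185, 7800 and 6123 against 3038, 1962 and 1206, a log2 difference of -1.94 (SE 0.34, limma adjusted p = 0.0675). Slc4a1, band 3 itself, read 13829 ± 1495 (SD, n = 5) against 7958 ± 1732 (SD, n = 3), a difference of -0.81 (SE 0.18). Tmod1, the tropomodulin that caps actin filaments of the skeleton, was at 3666 ± 669 against 1241 ± 334 (-1.58, SE 0.23). The ubiquitin ligase genes Trim10 and Trim58 differed by -1.56 and -1.30 (SE 0.30 and 0.23), and the blood group gene Kel by -1.26 (SE 0.28). Dmtn, the actin-bundling dematin, had the smallest p of the list and was at 1473 to 1854 against 972.6, 845.8 and 746.6 (limma adjusted p = 0.058). In each of these 7 genes the Tsc2-WT mice were all below the Fmr1-WT mice.

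The promoter of Epb42 is printed because this gene had the largest downward log2 difference of the list, and erythroid genes are known targets of the factor GATA1. It lies at chr2:121036848-121037127 on the minus strand (GRCm38.p6, RefSeq), and capitals mark AGATAA on either strand, found once, at -226 from the annotated start.
Epb42: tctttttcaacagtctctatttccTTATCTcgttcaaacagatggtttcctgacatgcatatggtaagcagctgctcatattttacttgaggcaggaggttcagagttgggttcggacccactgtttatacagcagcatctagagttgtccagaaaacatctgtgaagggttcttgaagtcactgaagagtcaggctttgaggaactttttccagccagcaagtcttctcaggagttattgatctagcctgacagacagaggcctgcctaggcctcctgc
AGATAA occurred in 5 of 13 promoter windows of the erythroid membrane genes (38.5%), in 3 of 16 of erythroid maturation genes (18.8%), in 2 of 18 of heme genes (11.1%), in 2 of 19 of T cell genes (10.5%) and in 10.7% of all windows.

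The other red cell lists had smaller median differences, and their counts stand beside 2.55% of all probe sets listed lower. Of 16 genes of erythroid maturation, 8 were listed lower and 0 higher, with a median of -0.63. Among them were the erythroid factors Gata1 (1690 ± 268 against 591 ± 361, log2 difference -1.70, SE 0.39) and Lmo2 (7201 ± 293 against 3842 ± 1247, -0.96, SE 0.21). This count fell to 3 without any single Fmr1-WT mouse, to 2 without Tsc2-WT mouse 2, where Gata1 was not listed at -1.72, and to 4 without mouse 3. Of 12 red cell enzymes, 6 were listed lower (3 without Tsc2-WT mouse 2), among them the carbonic anhydrase Car1 (-0.97, SE 0.14), Gpx1 (-0.54, SE 0.11), and Car2 at 11878 ± 1657 against 5637 ± 2195 (-1.14, SE 0.27, and not listed without Tsc2-WT mouse 2, at -1.18). Of 15 genes of heme synthesis and breakdown, 2 were listed lower: Urod (4183 ± 696 against 1907 ± 260, -1.13, SE 0.17) and Blvrb (8235 ± 1253 against 3220 ± 813, -1.38, SE 0.21). Alas2, the rate-limiting enzyme of heme synthesis in red cells, was at 17990 ± 573 against 17786 ± 1392 (-0.02, limma adjusted p = 0.928). It was the brightest gene of this list, and whether so bright a probe set still follows differences in RNA was not tested. Quantile normalization raised the heme count to 8, beside 5.23% of all probe sets listed lower there. Of 6 measured globin genes, 3 were listed lower, led by the embryonic Hbb-y (581 ± 102 against 209 ± 54.0, -1.49, SE 0.23). The 6 are Hbb-y, Hba-x, Hbb-bh1, Hbb-bh2, Hbq1a and Hbq1b. The main adult chains, such as Hba-a1 and Hbb-b1, were not among the measured genes, so the count says nothing about them.

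T cell genes were higher in Tsc2-WT mice. Of 18 T cell genes, 17 were listed higher and 0 lower, beside 9.43% of all probe sets, with a median difference of 1.26. The list median intensity was 1606, 1363, 1556, 1523 and 1413 in Fmr1-WT mice and 2524, 3545 and 5565 in Tsc2-WT mice. Every Tsc2-WT mouse was above all Fmr1-WT mice, and mouse 3, with the thymocyte genes, was highest. Without mouse 3 the same 17 were listed, with a median of 0.93, and leaving out any other mouse gave 12 or more. The summed thymocyte genes given above were ordered over the 3 mice in the same way, and their part in the values of mouse 2 was not tested.

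Zap70, the kinase that relays the T cell receptor signal, read 1544, 1410, 1566, 1278 and 1417 against 3564, 3702 and 5745 and passed (log2 difference 1.56, SE 0.19, limma adjusted p = 0.0456). Cd3d, a chain of the receptor complex, was at 290.2 ± 37.5 against 787 ± 169 (1.43, adjusted p = 0.0505). The receptor genes Cd6 and Cd3g differed by 1.16 (SE 0.17) and 1.14 (SE 0.19). The co-receptor genes Cd4 and Cd8a differed by 1.49 and 1.66 (SE 0.32 and 0.42). Both had their highest value in mouse 3, at 5390 and 9494, and differed by 1.05 and 1.08 without it, still listed. Cd8a was not listed without Fmr1-WT mouse 2, 3 or 5 or Tsc2-WT mouse 2, at 1.62 to 1.78. Trgv1, a variable segment of the gamma chain of gamma-delta T cells, read 212, 137, 185, 164 and 140 against 2132, 1400 and 2503. All 3 Tsc2-WT mice shared this level, and the log2 difference was 3.56 (SE 0.24, limma adjusted p = 0.00693).

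Further genes that passed upward included several known from T cell signalling, which is no fixed list. Sh2d2a, an adaptor of T cell signalling, was at 646 ± 48.2 against 1685 ± 201 (1.38, limma adjusted p = 0.0266). Ptpn22, a phosphatase that restrains the T cell receptor, was at 1097 ± 156 against 2779 ± 322 (1.35, adjusted p = 0.0452), and Plcg1, the phospholipase downstream of it, at 503 ± 37.3 against 1168 ± 156 (1.21, adjusted p = 0.0373). Traf1, Tnfrsf18 and Il12rb2, which were picked after their values were seen, passed with differences of 1.57, 1.30 and 2.32 (adjusted p = 0.0456, 0.0493 and 0.0493). The next 2 genes were listed but did not pass. Il2ra, the alpha chain of the interleukin 2 receptor, read 2187, 1610, 2474, 2058 and 1381 against 8091, 8267 and 16928 (2.46, limma adjusted p = 0.0501). Cxcr6, a chemokine receptor of memory T and NKT cells, read 165 to 212 against 2755, 2140 and 689 (3.13, adjusted p = 0.055), so that here mouse 3 was the lowest of its group.

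Dkkl1, a secreted protein known from the acrosome of sperm, was at 115 ± 14.5 against 581 ± 62.0 (2.34, SE 0.15, limma adjusted p = 0.00693). Mtmr9, a myotubularin-related protein, read 803, 631, 794, 657 and 542 against 2437, 2382 and 2088 (1.76, SE 0.17, adjusted p = 0.0266). Chst2, a sulfotransferase, was at 86.3 ± 7.09 against 229 ± 11.1 (1.41, adjusted p = 0.0199). The spread within each group was small in all 3 genes. Ehd3, Arsb, Lrrn4 and Adi1 passed with differences of 1.09, 1.12, 1.61 and 0.98 (adjusted p = 0.0373, 0.0452, 0.0452 and 0.0452), as did Tbc1d22b and Agap2 outside the naming rule (1.19 and 0.97, adjusted p = 0.0456 and 0.0493). Retnla, a resistin-like protein of alternatively activated macrophages, read 49.5, 54.6, 112, 66.2 and 121 against 810, 11744 and 30833. The Tsc2-WT mice differed widely among themselves, and the gene was listed but did not pass (log2 difference 6.46, SE 1.08, adjusted p = 0.0675).

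Other large upward differences were listed but rested on Tsc2-WT mice with unlike values. Ccr9, a chemokine receptor of thymocytes and gut-homing T cells, read 240.2 to 370.6 against 937.8, 2080 and 8243 (3.00, SE 0.62). Trav14-1, a variable segment of the T cell receptor alpha chain, read 57.0 to 113.6 against 136.9, 487.7 and 2169 (2.93, SE 0.79). Pclaf, a factor of replicating cells, read 105 to 193.8 against 360, 521.6 and 3481 (2.58, SE 0.70). In these genes, and in Ldhb, a lactate dehydrogenase subunit (3.03, SE 0.83), and Camk4, a calmodulin-dependent kinase (2.47, SE 0.53), mouse 3 was highest and mouse 1 lowest of the group. Dnase1l3, a secreted DNase, and the keratin gene Krt222 differed by 2.60 (SE 0.44) and 2.64 (SE 0.59). Socs2, a suppressor of cytokine signalling, read 36.9 to 213.9 against 1333, 563.1 and 334.6 (2.73, SE 0.67), with mouse 1 highest. Ldhb was not listed when any Fmr1-WT mouse or Tsc2-WT mouse 2 was left out (2.78 to 3.21), nor was Trav14-1 without Fmr1-WT mouse 1, 2, 3 or 5 or Tsc2-WT mouse 2 (2.86 to 2.98), nor Pclaf without any 1 Fmr1-WT mouse (2.46 to 2.69). Socs2 was not listed without Fmr1-WT mouse 4 or Tsc2-WT mouse 1 or 2 (2.62, 2.19 and 2.81), and Krt222 without Tsc2-WT mouse 2 or 3 (2.55 and 2.20). The Fmr1-WT values of Ldhb (17.7 to 48.4) and Dnase1l3 (47.2 to 73.1) were near those of the olfactory receptor genes.

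NK cell genes were higher, with less weight on mouse 3. Of 20 genes, 10 were listed higher, beside 9.43% of all probe sets, and 0 lower, and the median of 1.00 stood beside 0.22 over all probe sets. The list median intensity was 528.3, 556.7, 428.8, 398.1 and 328.3 against 1174, 1061 and 554.5, and mouse 3 overlapped the Fmr1-WT mice. The count was 13 without mouse 3 and 4 without Tsc2-WT mouse 1 or 2. After quantile normalization it was 6, beside 5.02% of all probe sets listed higher there. Gzmb, granzyme B of cytotoxic granules, read 849, 1119, 707, 579 and 503 against 4184, 3187 and 1733 (1.98, SE 0.36). Il2rb, the beta chain of the interleukin 2 and 15 receptors, was at 884 ± 116 against 2922 ± 1251 (1.63, SE 0.31), and the lectin receptor gene Klrb1a at 283 ± 90.3 against 952 ± 350 (1.73, SE 0.35). Ncr1, the defining NK receptor, differed by 0.76 and was not listed, but was at 1.10 without mouse 3. Of 8 genes of the Ly49 and Klri receptor families, 1 was listed, Klri1 (1.21, SE 0.25).

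**Figure D3:**
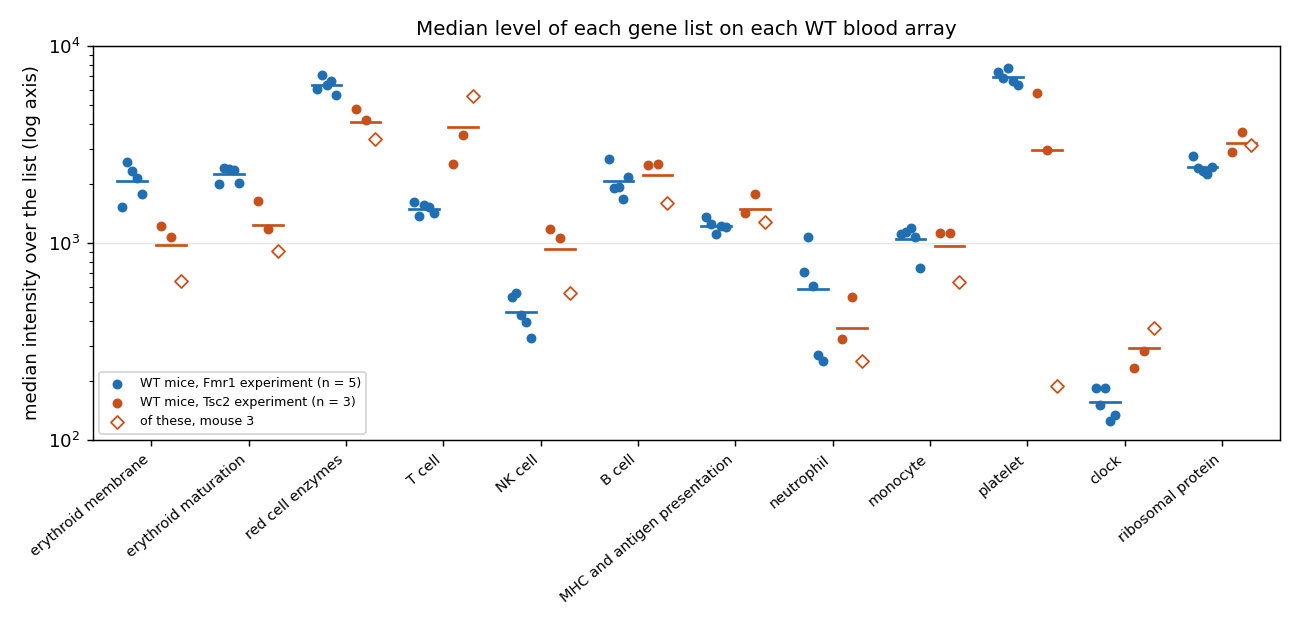
Median intensity (log axis) of 12 gene lists on each WT blood array. Points are mice, lines are group means and the open diamond is Tsc2-WT mouse 3: the erythroid membrane list lies lower in all Tsc2-WT mice (640.3 to 1220 against 1515 to 2580), the T cell list lies higher (2524 to 5565 against 1363 to 1606), and the platelet list falls to 187.0 in mouse 3.

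Platelet genes were lower in level but none of 15 was listed by limma, and 5 had an unadjusted p under 0.05. The list median intensity was 7337, 6878, 7732, 6659 and 6348 in Fmr1-WT mice and 5780, 2956 and 187.0 in Tsc2-WT mice. Mouse 1 was close to the Fmr1-WT mice, mouse 2 lower and mouse 3 lowest. In 13 of the 15 genes the groups did not overlap, beside 5.77% of all probe sets lower without overlap. The median difference was -2.37, and -0.80 without mouse 3. Pf4, platelet factor 4, read 6225, 3446 and 335 in Tsc2-WT mice and 6348 to 8053 in Fmr1-WT mice (-1.89, limma adjusted p = 0.191). Among the Tsc2+/- mice, Ppbp was at 1241 in mouse 2.

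B cell, myeloid and interferon genes gave few calls, near or under the shares of all probe sets listed higher (9.43%) and lower (2.55%) for the B cell list and for the higher calls of the monocyte and interferon lists. Of 20 B cell genes, 2 were listed higher (7 without Fmr1-WT mouse 1 and 0 without Tsc2-WT mouse 2), the immunoglobulin heavy chain Ighm (3847 ± 471 against 6352 ± 803, 0.72, SE 0.15) and the coactivator Pou2af1 (0.81, SE 0.17). Of 20 neutrophil genes none was listed by limma (3 at an unadjusted p under 0.05), with a median of -0.43 and the alarmin gene S100a8 at 2620 ± 1263 against 1008 ± 506 (-1.39, limma adjusted p = 0.142). Of 17 monocyte genes, 1 was listed higher, the chemokine receptor Ccr2 (357 ± 27.6 against 623 ± 53.3, 0.80, SE 0.12, and not listed after quantile normalization, at 0.50). The 2 listed lower were Chil3 and F13a1, a clotting factor subunit that platelets also carry (-1.04, SE 0.24, and not listed without Tsc2-WT mouse 2 or 3, at -0.92 and -0.88). Of 28 interferon-stimulated genes, 2 were listed higher, Gbp3 (0.97, SE 0.19) and Mx1 (0.54, SE 0.14), and 3 lower, Oasl2 (-1.21, SE 0.30), Oas3 (-0.99, SE 0.24) and Cmpk2 (-1.17, SE 0.29), and the 3 became 1, 0 and 1 without Fmr1-WT mouse 2 or 4 or Tsc2-WT mouse 2. None of 10 genes of the Ifi200 family was listed by limma (1 at an unadjusted p under 0.05, median 0.53), and 3 were without Tsc2-WT mouse 3 and 1 without Fmr1-WT mouse 1.

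Of 24 genes of the major histocompatibility complex (MHC) and antigen presentation, 4 were listed higher, beside 9.43% of all probe sets, and 0 lower. Psmb8, a subunit of the immunoproteasome, was at 678 ± 107 against 1225 ± 133 (0.86, SE 0.16), and Tap2, of the peptide transporter, at 446 ± 32.1 against 852 ± 273 (0.89, SE 0.20, and not listed after quantile normalization, at 0.60). H2-T10, a class Ib MHC gene, read 1129, 439, 998, 1005 and 441 against 2217, 2355 and 1965 (1.56, SE 0.38), and was not listed without Tsc2-WT mouse 1 or 3, at 1.54 and 1.63, or without mouse 2. Such genes have close copies that can share probes. The count was 7 without Fmr1-WT mouse 1 and 2 without Tsc2-WT mouse 1 or 2.

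Among genes that follow the hour and stress of sampling, those of the circadian clock were listed higher in 7 of 17, beside 9.43% of all probe sets, and lower in 0, with a median of 0.92 beside 0.22. Per1, a core repressor of the clock, was at 370 ± 70.6 against 696 ± 103 (0.92, SE 0.21, and not listed without Tsc2-WT mouse 2 or 3, at 0.88 and 0.84), and Cry2, another, differed by 0.83 (SE 0.18). The count was 1 without Tsc2-WT mouse 2 or 3, and 4, 4, 2 and 3 without Fmr1-WT mouse 2, 3, 4 and 5. The hour at which blood was taken is not given in the sources used here. Of 15 genes of the glucocorticoid response, 7 were listed higher and 2, Mt1 and Mt2, lower, beside 9.43% and 2.55%. The chaperone gene Fkbp5 read 269, 204, 291, 208 and 112 against 483, 795 and 1331 (1.96, SE 0.41), and Zbtb16 was at 214 ± 18.1 against 431 ± 89.7 (0.99, SE 0.17). The 7 became 4 without Fmr1-WT mouse 4 or Tsc2-WT mouse 1 or 3 and 3 without Tsc2-WT mouse 2. All 3 of Fkbp5, Mt1 and Mt2 are known glucocorticoid targets. In Tsc2-WT mice Fkbp5 was higher and the metallothioneins were lower, and the cause of either was not tested.

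The counts of the following lists stand beside 9.43% of all probe sets listed higher and 2.55% listed lower. Of 36 immediate early genes, 7 were listed higher and 0 lower (4 without Fmr1-WT mouse 4 or Tsc2-WT mouse 2), with a median of 0.32. Myc, the growth regulator, was at 812 ± 163 against 2899 ± 1443 (1.73, SE 0.33), and Tnfaip3, a brake on NF-kB signalling, at 445 ± 33.8 against 924 ± 323 (1.00, SE 0.22), while Fos differed by -0.20 and was not listed. Of 17 heat shock genes, 3 were listed higher (0 without Tsc2-WT mouse 2 and 1 without mouse 3). Of 29 proliferation genes, 2 were listed higher and 1 lower, and their median of 0.90 was 0.21 without mouse 3, whose Top2a, a topoisomerase of dividing cells, read 5802. The 2 became 8 without Tsc2-WT mouse 1, 1 without Fmr1-WT mouse 3 and 0 without Fmr1-WT mouse 2, 4 or 5. Of 54 ribosomal protein genes, 6 were listed higher and 0 lower, with a median of 0.29 close to that of all probe sets (3 without Fmr1-WT mouse 2 or Tsc2-WT mouse 3 and 2 without Tsc2-WT mouse 2). Of 54 small nucleolar RNAs, 3 were listed higher and 1 lower, and of 1027 olfactory receptor genes, 20 lower and 0 higher. The shares of the ribosomal protein, proliferation and small nucleolar RNA genes listed higher and of the olfactory receptor genes listed lower were near or under those of all probe sets.

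Of 5 genes with a known difference between inbred strains, 1 was listed higher and 0 lower, beside 9.43% and 2.55% of all probe sets. Nnt, the mitochondrial transhydrogenase, read 449, 318, 357, 342 and 276 in Fmr1-WT mice and 588, 688 and 1131 in Tsc2-WT mice. The groups were separate (log2 difference 1.16, SE 0.25, limma adjusted p = 0.0675), and in cerebellum the same mice read 383 ± 55.6 against 523 ± 27.2 (0.46, limma adjusted p = 0.558). Casp4 and Disc1, which are known to carry deletions in relatives of 129/SvJae mice, differed by -0.12 (limma adjusted p = 0.795) and 0.02 (adjusted p = 0.962). These are levels of probe sets and not genotypes. Across the chromosomes, the share of probe sets with 1 symbol that was listed ran from 10.1% on X to 16.7% on chromosome 8.

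The mutant mice of the same experiments gave a separate set of arrays, with genotype as a further difference. Between the 3 Tsc2+/- and 5 Fmr1-KO mice, 9294 probe sets were listed (26.1%), 7316 higher (20.6%) and 1978 lower (5.56%), beside a median shift of 0.38. Of the 3353 listed higher in WT mice, 2795 were listed higher in mutants, which is 83.4% of the WT list and 38.2% of the mutant list. Of the 906 listed lower, 637 were listed lower in mutants, 70.3% and 32.2% of the lists, and none of either was listed the opposite way. Atp6v0d2 read 4303, 2889, 3356, 2660 and 1208 in Fmr1-KO mice and 58.5, 47.6 and 51.7 in Tsc2+/- mice, almost the levels of their WT mates. Retnla read 24.9 to 103 against 3901, 51204 and 26489. The difference in Mt1 was -1.40 in mutants (limma adjusted p = 0.0581) beside -2.49 in WT mice, and the difference between them was not listed. T cell genes were listed higher in 17 of 18, NK cell genes in 15 of 20 and erythroid membrane genes lower in 15 of 17. Other lists stood apart from the WT comparison: the proliferation genes had a median of -0.04, with 8 listed higher and 7 lower, beside 0.90 in WT mice, and the monocyte genes one of 0.47 beside -0.13. These differences of medians were not tested. In the test of WT against mutant differences over all 16 blood arrays, 181 probe sets were listed (0.509%) and 1 passed (0.00281%), which has no gene symbol. That number was 119 without Fmr1-WT mouse 1, and 359, 353 and 357 without Tsc2-WT mouse 3, Fmr1-KO mouse 4 and Tsc2+/- mouse 1.

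Few of the probe sets listed in blood were also listed in cerebellum of the same WT mice. There 135 probe sets were listed higher (0.380%) and 323 lower (0.908%), and 33 of the 3353 and 7 of the 906 listed in blood were among them in the same direction. Seen from the cerebellum lists, these are 33 of 135 and 7 of 323, beside 9.43% and 2.55% of all probe sets listed higher and lower in blood. In the test of the blood difference against the cerebellum difference of each mouse, 1842 were listed (5.18%), falling to 694, 792, 877 and 979 without Tsc2-WT mouse 3 or 2 or Fmr1-WT mouse 2 or 4. Of them 3 passed (0.00844%), 2 without a gene symbol and with Fmr1-WT means under 1, and Atp6v0d2, with a log2 difference of -5.77 (limma adjusted p = 0.0336). Mtmr9 was higher in blood of Tsc2-WT mice by 1.76 and in cerebellum by 0.27 (limma adjusted p = 0.558), where its level was 1820 ± 259 against 2179 ± 62.8. Nnt was listed in both tissues, and the difference between the tissues was not listed (limma adjusted p = 0.211).

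**Figure D4:**
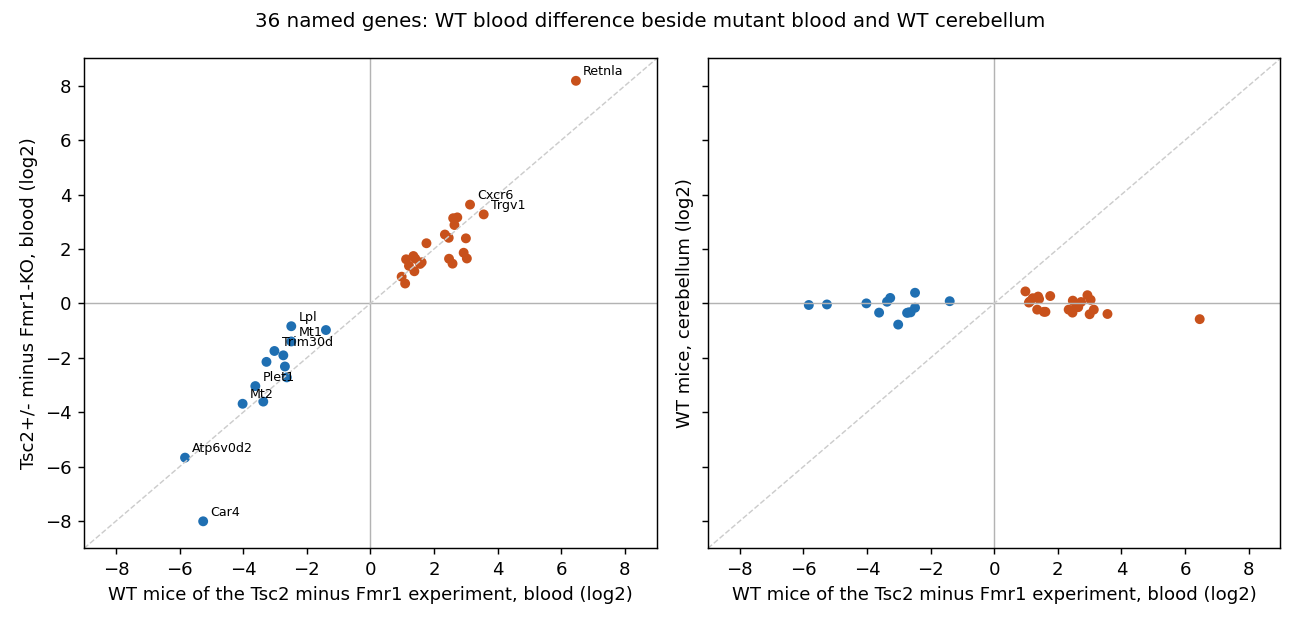
Log2 differences of 36 named genes, those that passed in WT blood or had the largest listed differences there, in WT blood (horizontal axes) beside mutant blood (left) and WT cerebellum (right). The dashed line marks equal differences: all 36 have the same sign in mutant blood, while in cerebellum none is larger than 0.78 in either direction.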

How the data were processed

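Total RNA of blood and cerebellum extracted with Trizol was put on Affymetrix Mouse Gene 1.0 ST arrays, 250 ng per the labels. The deposited values are linear intensities for 35556 probe sets on 32 arrays, in which the authors had quantile-normalized probes jointly for both tissues and summarized them with PLIER. The submitters' processing notes name Affymetrix Power Tools and PLIER without versions. Normalizing blood and cerebellum together can shift levels between groups whose cell makeup differs, so blood was also normalized again alone. Probes are designed on the reference genome, which is that of C57BL/6J; the effect of sequence differences of 129/SvJae mice under a probe was not tested.

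Here log2 of each intensity was tested with limma 3.58.1 in R 4.3.3 (lmFit and eBayes, two-sided, 8 arrays, no offset). A check on simulated data was run first. It drew independent normal values on the scale with 16 added before log2, so it does not cover the fit without an offset. The study fitted both tissues with a linear model. A limma fit of both tissues, with tissue as a term, is among the alternatives. It is not the study's fit itself, and it takes the 2 arrays of a mouse as independent. The other alternatives include an offset of 16, 2 other scalings, a filter at a mean log2 of 6, an intensity trend, Welch's t-test and leaving out each mouse. Further fits took the mutant mice, all 16 blood arrays, and each mouse's blood minus cerebellum value. Array number limits the precision. The labels do not say how the mice relate by litter. Of the probe sets, 21789 have 1 gene symbol, 1621 several and 12146 none; a gene was taken at its brightest probe set with 1 symbol.

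Named are up to 12 genes of smallest p that passed in each direction, the 12 of largest listed difference each way without overlap, members among the 4 of smallest p and defining markers of each list, and targeted and sex genes. Of the list members this takes, only some are named, and the rest stand in the counts. The comparison and the lists were chosen with earlier results of these data known, and 2 lists (thymocyte and airway) after the values were seen. Replicate numbers were checked for pairing and do not pair the mice.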

Additional observations from a re-analysis of the deposited data

Results flagged for a closer look

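Of the 109 genes named above with values and tested for a value far from the others, 11 had an Fmr1-WT mouse whose blood value stood far above those of the other 4 mice, judged by Dixon's ratio of the gap to the range. For normal values, and counting either end of the range, chance passes the limit used in about 1 of 20 groups. These are unlogged intensities of picked genes in the same mice, so that rate need not hold here. The high values were 6023 for Mt2, 532.5 for Tpm2, 113.6 for Trav14-1, 5380 for Urod, 10402 for Blvrb, 331.6 for Gbp3, 1096 for Myc, 639.7 for Fabp4, 6490 for Trim10, 654.3 for Agap2 and 268.9 for Disc1. For Mt2 the high mouse lay on the side away from the Tsc2-WT mice, and for Myc and Gbp3 on the side toward them, below the lowest Tsc2-WT value in each. Atp6v0d2 differed between the tissues, with a log2 difference in blood minus that in cerebellum of -5.77 (limma adjusted p = 0.0336).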

How the results depend on the processing

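The probe sets listed between the WT groups numbered 4259, and 2027 by Welch's t-test, 6596 with all 16 blood arrays in 1 fit, 2806 with blood and cerebellum in 1 fit, and 1720 to 5093 when each mouse was left out. The 47 that passed became 2683 with 16 added, 4888 without probe sets of mean log2 under 6, 1534 among probe sets with 1 symbol, 4527 with an intensity trend, 9 by the t-test, 6276 with 16 arrays, 17 with both tissues, and 7 to 2324 with a mouse left out. Replicate numbers of the same value did not deviate together (correlations of -0.219, 0.0507 and 0.0555 over genes), so the numbers do not pair the mice, and with the replicate block 504 were listed and 0 passed by limma. Left-out mice gave 119 to 359 for the WT against mutant test and 694 to 2467 for blood against cerebellum.

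Centring the arrays changed the listed members of the NK cell list to 6, immediate early to 4, heat shock to 1, glucocorticoid response to 4, ribosomal protein to 3 and olfactory receptor to 36. Of all 35556 probe sets, centring listed 2339 higher and 1201 lower. Quantile normalization gave 8 for heme, 6 for NK cell, 4 for immediate early, 4 for clock, 2 for MHC, 1 for proliferation, 1 for small nucleolar RNA and 53 for olfactory receptor. These stand beside 5.02% of all probe sets listed higher and 5.23% lower. The olfactory receptor genes, listed lower, were near that share. With 16 added, Ifi200 had 1, heat shock 5 and proliferation 7, beside 4223 of all probe sets listed higher and 996 lower. Welch's t-test, counted in either direction, listed 2 of 18 T cell, 1 of 17 erythroid membrane and 1 of 20 NK cell genes. It listed 2027 of all 35556 probe sets, and the erythroid membrane and NK cell counts were near that share. For erythroid maturation it listed 0 of 16, for globins 0 of 6, for red cell enzymes 2 of 12 and for the clock 2 of 17. Its counts were 9 of 54 for ribosomal protein, 3 of 15 for heme and 3 of 20 for B cell genes. Over left-out mice the ranges were 3 to 6 for red cell enzymes, 2 to 11 for erythroid maturation, 1 to 3 for monocyte, 0 to 7 for B cell, 4 to 13 for NK cell, 0 to 4 for interferon-stimulated, 0 to 3 for Ifi200, 4 to 7 for immediate early, 0 to 3 for heat shock, 1 to 8 for clock, 3 to 7 for glucocorticoid response, 1 to 2 for Ly49, 2 to 7 for MHC, 0 to 8 for proliferation, 2 to 8 for ribosomal protein, 0 to 5 for small nucleolar RNA and 7 to 21 for olfactory receptor. Of 85 named genes that were listed, 85 stayed listed with 16 added, 83 after quantile normalization and 66 to 80 with a mouse left out, and 0 reversed. The cause of these changes was not tested. Log2 differences of values near the array floor, such as those of Car4 in Tsc2-WT mice, turn on small signals, and the 3 mice on that side limit every test.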
